A study of Mus musculus with 19 samples.

Results

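Complement genes were represented by 9 of the 48709 genes counted in 19 mouse hippocampal libraries. They were chosen by name for their place in the pathway, with earlier results of these data known, so that counts of them called are descriptive. They are the initiators C1qa, C1qb, C1qc, C1ra and C1s1, the central components C3 and C4b, the regulator Serping1 and the receptor C3ar1. All 9 were among the 19286 genes that passed the filter on low counts. RNA of the CA1 region was sequenced from male wild-type C57B/6J mice to ask how inhibition of 3 microRNAs changes the aged hippocampus. Mice of 3 months (young, n = 6) and of 16.5 months (old control, n = 6) had received control oligonucleotides, and further mice of 16.5 months (old anti-miR-mix, n = 7) had received a mix of inhibitors of miR-146a-5p, of miR-148a-3p and of miR-181a-5p. All 3 groups had thus been injected with oligonucleotides in lipid nanoparticles into the dorsal hippocampus of both hemispheres, and none was uninjected or combined young age with the inhibitors. The libraries are numbered within a group and the labels name no animal, so that p-values measure the spread between these libraries.

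Complement is a cascade of proteins that tags targets for removal. In the classical pathway C1q, assembled from the products of C1qa, C1qb and C1qc, binds the target and carries the proteases C1r and C1s. Of these, C1s cleaves C4 and C2 so that C3 is cleaved and deposited. Serping1 encodes C1 inhibitor, which blocks C1r and C1s, and C3ar1 encodes the receptor for the C3a fragment. In the brain C1q and the C3a receptor are made chiefly by microglia, and the pathway is known for the tagging of synapses and for its increase with age and injury.

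The mature microRNAs (RefSeq) and the inhibitors designed against them are shown because the inhibitors are what separates the treated from the control mice of the same age. Capitals mark the seed, bases 2 to 8 of the microRNA, and in each inhibitor the bases that pair with it.
mmu-miR-146a-5p: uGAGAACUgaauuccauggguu
mmu-miR-146a-5p inhibitor: acccatggaattcAGTTCTC
mmu-miR-148a-3p: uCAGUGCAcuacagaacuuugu
mmu-miR-148a-3p inhibitor: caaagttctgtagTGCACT
mmu-miR-181a-5p: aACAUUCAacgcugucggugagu
mmu-miR-181a-5p inhibitor: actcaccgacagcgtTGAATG
The inhibitor of miR-146a-5p pairs with mature bases 2 to 21 and so with the whole seed, whereas the other inhibitors begin at base 3. The control oligonucleotide held 0 matches to the 3 seeds.

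Total counts per library lay between 26653511 and 38908947, which left 11 to 88 reads for C1ra and 14 to 117 for C1s1 but at least 105 for C3 and 979 for C1qa. Markers of CA1 pyramidal cells were detected in every group, with a summed median of 870, 963 and 837 CPM (counts scaled to library size) in young, old control and treated CA1, and markers of CA3 and dentate cells with 128, 127 and 135 CPM. The log2 values deposited beside the counts imply a number from 1 to 4 for each library, of unstated origin, called its processing group here. Processing group 3 held young replicates 3 and 4 and old anti-miR-mix replicates 3, 4 and 5 but 0 old control libraries. Old control replicates 5 and 6 were closer to each other than any other pair of a group (chi-square per degree of freedom 2.18, against 6.10 for the next pair), and results are also given with them taken as 1 library.

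Scaled to exon length and library size (RPKM), the 9 genes covered a wide range of levels. In young CA1, C1qa stood at 45.0 ± 9.34 RPKM (SD, n = 6) and C1qb at 43.4 ± 8.14 RPKM, and these neighbours in the order overlapped. C1qc at 21.0 ± 4.00 RPKM and C4b at 19.1 ± 6.63 RPKM followed, overlapping each other but not C1qb. C3 at 4.73 ± 2.98 RPKM and Serping1 at 4.27 ± 1.03 RPKM overlapped. C3ar1 stood apart at 0.811 ± 0.204 RPKM, and C1ra and C1s1 were lowest at 0.302 ± 0.107 and 0.301 ± 0.0659 RPKM. The protease genes were thus far below the genes of the subunits that carry the proteases. In old control CA1 the order was the same except that C4b (21.6 to 39.7 RPKM) came before C1qc (23.1 to 26.6 RPKM), with overlap. In old anti-miR-mix CA1, C1qa reached 91.9 ± 18.0 RPKM and C4b 38.6 ± 6.52 RPKM (n = 7). Of the 50-base windows of C1ra, C1s1 and C4b, 50.8%, 35.1% and 34.6% also occur in another gene, and C1s1 shares 576 exon bases (18.4%) with the antisense gene Gm16567. How such reads were counted is not given in the sources used here, so that the values of these 3 genes are uncertain.

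With age 0 of the 9 genes passed edgeR's quasi-likelihood test (adjusted p under 0.05 over all genes), where 2.67% of all genes passed (1.32% higher and 1.34% lower). At an unadjusted p under 0.05 there were 3, namely C1qa, C1qb and C4b, each with a higher mean in old control CA1, where 18.1% of all genes were under it, and DESeq2 called 0 of 9 where it called 4.74% of all genes. None of the 9 separated the old control from the young libraries without overlap, against 1.25% of all genes that did so upwards and 2.54% in either direction. With treatment 5 of 9 rose (C1qa, C1qb, C1qc, C1s1 and C3ar1), where 0.669% of all genes were called higher and 0 lower. Between old anti-miR-mix and young 6 of 9 rose, these 5 and C4b, where 6.2% of all genes were called (4.57% higher and 1.63% lower). At an unadjusted p under 0.05 in edgeR there were 8 of 9 with treatment and 9 of 9 against young, all higher. Over all genes 10.5% and 19.6% were under it. The median log2 fold change of the 9 genes was 0.24, 0.63 and 1.01 in these comparisons, beside 0.01, 0.00 and 0.00 over all genes tested. The old control libraries enter the first 2 comparisons on opposite sides, so that these are not independent. Old anti-miR-mix and young mice differ in age as well as in inhibitors, which their comparison cannot tell apart. In bulk tissue, more cells of a type and more RNA per cell cannot be told apart.

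The calls with treatment depended on single choices. C1qa, C1qb, C1qc and C3ar1 passed in 8 of 12 alternatives and in 11 of 19 fits without 1 library. C1s1 passed in 7 of 12 and in 14 of 19. DESeq2 called these genes and Serping1 with treatment, where it called 1.38% of all genes. With the processing group as a factor 0 of 9 passed, as was the case with old control replicates 5 and 6 as 1 library, and also without the libraries of processing group 3, a choice made after seeing the data. The count was also 0 without old control replicate 1, 2, 5 or 6 or without old anti-miR-mix replicate 4, and 1 (C1s1) without old anti-miR-mix replicate 2, 3 or 5. Against young, C1qa, C1qb, C1qc, C4b and C3ar1 passed without each of the 19 libraries and in 12 of 12 other alternatives, and C1s1 in 11 of 12, the exception being without processing group 3 (adjusted p = 0.0980, edgeR). With age, the processing group as a factor brought C1qa, C1qb, C1qc and C4b past the threshold (adjusted p = 0.0237, 0.0229, 0.0341 and 0.0295 in edgeR). This fit called 371 of all 19286 genes with age.

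**Figure D1:**
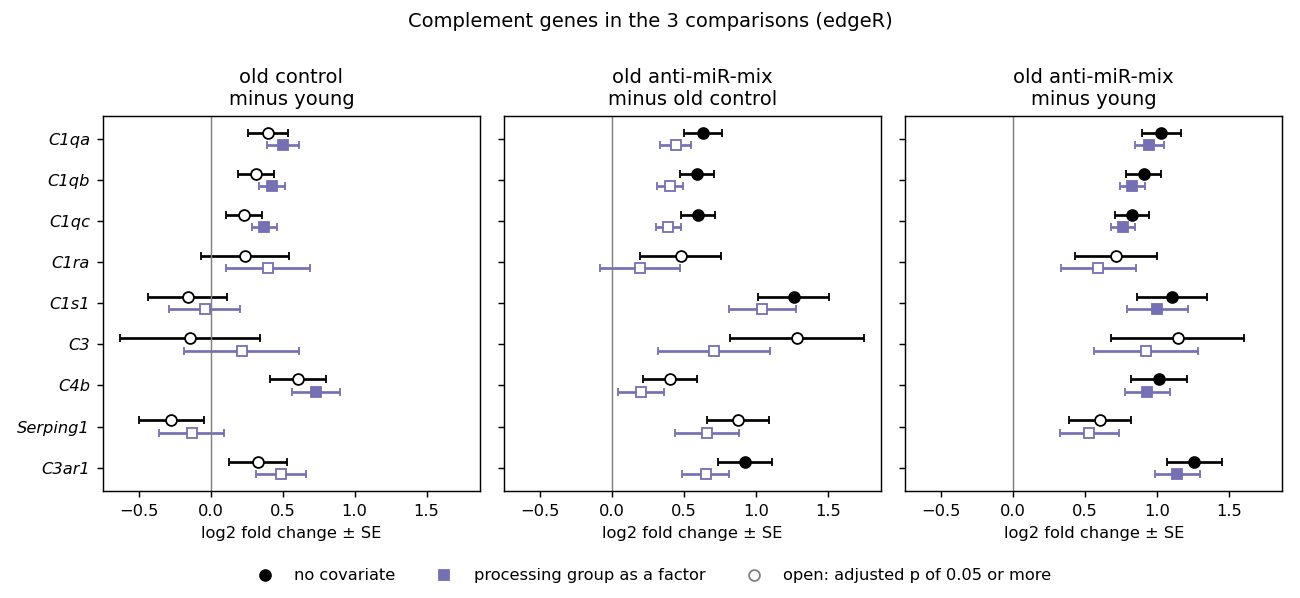
Log2 fold change ± SE (x axis) of the 9 complement genes (rows) in the 3 comparisons, from edgeR with no covariate (circles) and with the processing group as a factor (squares), filled where the adjusted p is under 0.05. For old anti-miR-mix against old control 5 circles and 0 squares are filled, and for old anti-miR-mix against young 6 of each.

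C1qa, C1qb and C1qc encode the 3 chains of C1q and lie side by side on the minus strand of chromosome 4 (GRCm38), at chr4:136895917-136898803, chr4:136880129-136886187 and chr4:136889804-136893065. C1qa ran from 5.14 (median 5.58) to 5.88 log2 CPM in young CA1, from 5.75 (median 5.92) to 6.24 log2 CPM in old control CA1 and from 6.09 (median 6.71) to 6.85 log2 CPM after anti-miR-mix. All 7 treated libraries exceeded every young library, 6 of 7 exceeded every old control library, and 3 of 6 old control libraries exceeded every young one. Over all genes 1.79% were separated from young upwards after anti-miR-mix, and 2.42% in either direction. The log2 fold change of C1qa was 0.40 ± 0.14 with age (SE, adjusted p = 0.120), 0.63 ± 0.13 with treatment (adjusted p = 0.0259) and 1.03 ± 0.13 against young (adjusted p = 6.12e-05, edgeR). C1qb ran from 5.19 (median 5.64) to 5.87 log2 CPM in young CA1, from 5.73 (median 5.87) to 6.06 log2 CPM in old control CA1 and from 6.03 (median 6.57) to 6.78 log2 CPM after anti-miR-mix. Treated and old control libraries overlapped in 1 treated library. C1qb had a log2 fold change of 0.32 ± 0.12 with age (SE, adjusted p = 0.176), 0.59 ± 0.12 with treatment (adjusted p = 0.0240) and 0.91 ± 0.12 against young (adjusted p = 7.76e-05, edgeR). C1qc ran from 4.91 (median 5.43) to 5.60 log2 CPM in young CA1, from 5.48 (median 5.56) to 5.68 log2 CPM in old control CA1 and from 5.83 (median 6.22) to 6.48 log2 CPM after anti-miR-mix. The lowest treated library was above the highest old control library, which held for 0.425% of all genes (0.498% in either direction). For C1qc the log2 fold change was 0.23 ± 0.12 with age (SE, adjusted p = 0.325), 0.60 ± 0.12 with treatment (adjusted p = 0.0221) and 0.83 ± 0.12 against young (adjusted p = 0.000143, edgeR).

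The log2 ratio of C1qa to C1qb in CPM was -0.02 ± 0.06, 0.06 ± 0.08 and 0.11 ± 0.05 in young, old control and treated CA1 (SD, n = 6, 6 and 7). The ratio of C1qa to C1qc was 0.20 ± 0.07, 0.37 ± 0.15 and 0.41 ± 0.13 in the same order. Both mean ratios were lowest in young CA1, a difference that was not tested.

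**Figure D2:**
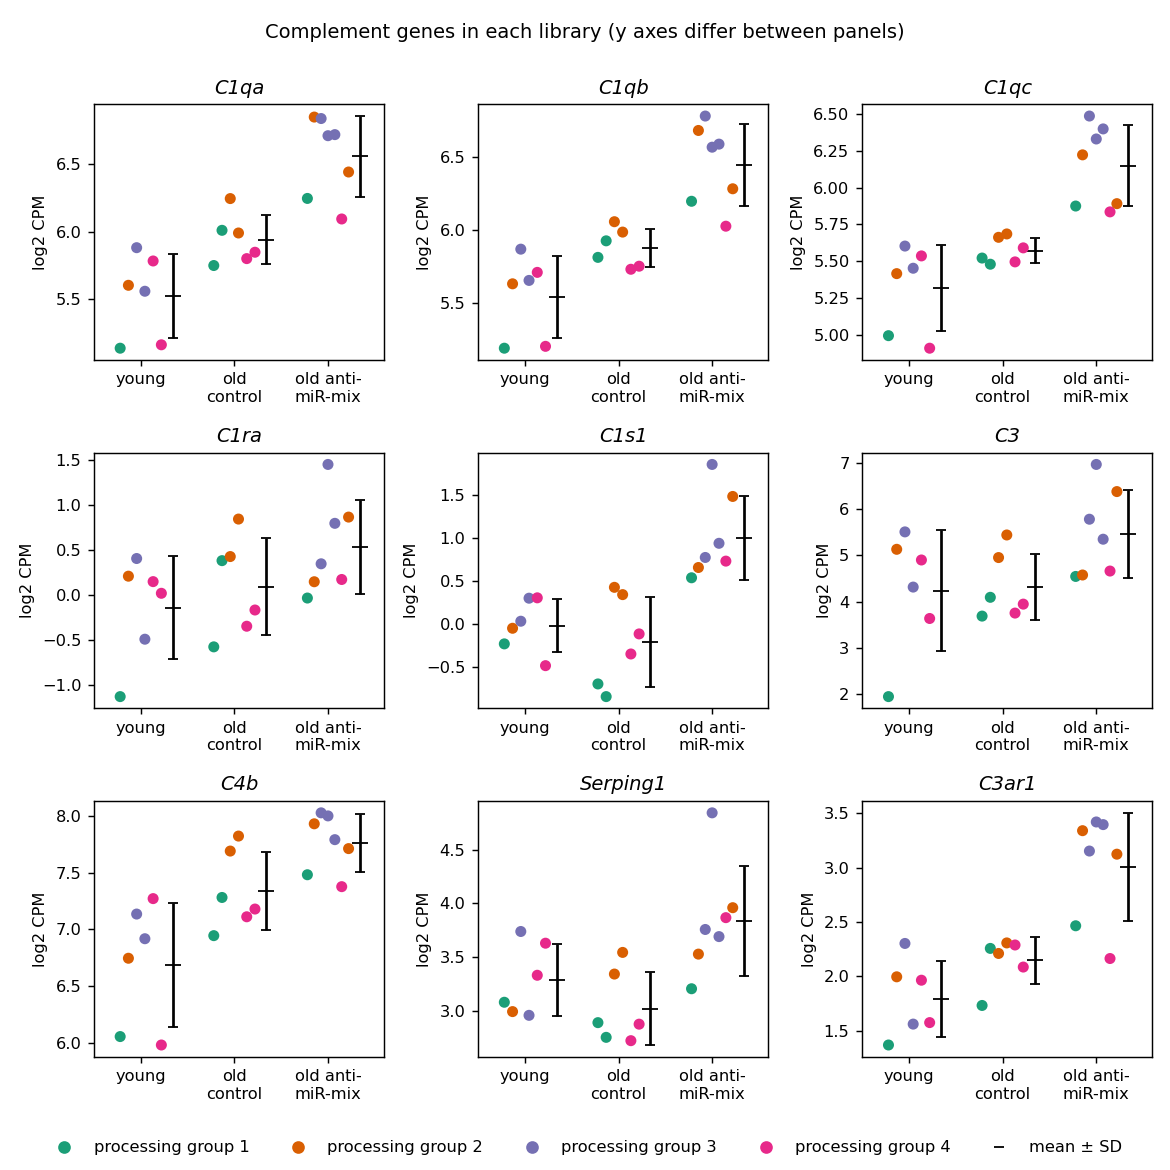
Log2 CPM (y axis, its own scale in each panel) of the 9 complement genes in each of the 19 libraries by group (x axis), coloured by processing group, with the mean ± SD of each group. The old anti-miR-mix points lie above all young points for C1qa, C1qb, C1qc, C1s1 and C4b, whereas C3 spans from 1.94 to 5.51 log2 CPM within young. Over all genes 1.79% were separated from young upwards in this way and 2.42% in either direction.

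The promoter windows of C1qb and C1qc, from 250 bases before to 50 after the start (RefSeq, GRCm38.p6, minus strand), are shown because these neighbouring genes moved together. Capitals mark matches to words searched on both strands: an NF-kB word, GGGA and TCC with any 3 bases between, in C1qb at chr4:136886151-136886450, and a PU.1 word, GAGGAAG, on the opposite strand of C1qc at chr4:136892865-136893164.
C1qb: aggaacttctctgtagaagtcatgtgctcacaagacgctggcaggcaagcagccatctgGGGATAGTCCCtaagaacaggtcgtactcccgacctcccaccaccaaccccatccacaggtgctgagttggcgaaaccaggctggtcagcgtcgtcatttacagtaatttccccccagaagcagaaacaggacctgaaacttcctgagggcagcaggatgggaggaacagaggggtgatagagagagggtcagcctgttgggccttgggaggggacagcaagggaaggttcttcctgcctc
C1qc: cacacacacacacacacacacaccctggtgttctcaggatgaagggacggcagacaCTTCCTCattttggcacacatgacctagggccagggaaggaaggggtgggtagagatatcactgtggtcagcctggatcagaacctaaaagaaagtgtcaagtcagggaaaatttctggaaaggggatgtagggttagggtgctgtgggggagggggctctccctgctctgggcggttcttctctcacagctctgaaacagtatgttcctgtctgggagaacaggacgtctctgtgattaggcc
The NF-kB word overlaps its own match on the other strand in C1qb and was present in 4.59% of 32851 promoters, and the PU.1 word in 13.6%. A STAT word (TTCNNNGAA, 8.30% of promoters) was found in C1ra and an AP-1 word (TGANTCA, 7.81%) in C3ar1. An interferon response word, GAAA and GAAA with any 2 bases between (3.44%), was in 0 of the 7 windows, which covered 6 of the 9 genes. Such matches describe letters, not bound sites.

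C1ra and C1s1, which encode the proteases of the C1 complex, are neighbours on chromosome 6, at chr6:124512405-124523443 on the plus strand and chr6:124530345-124542359 on the minus strand. C1s1 ran from -0.48 (median -0.01) to 0.31 log2 CPM in young CA1, from -0.84 (median -0.23) to 0.43 log2 CPM in old control CA1 and from 0.54 (median 0.77) to 1.85 log2 CPM after anti-miR-mix. All 7 treated libraries, with replicates 4 and 7 highest, were above every young and every old control library, and young and old control overlapped. Over all genes 0.425% were separated upwards from old control and 1.79% from young (0.498% and 2.42% in either direction). C1s1 had a log2 fold change of -0.16 ± 0.27 with age (SE, adjusted p = 0.817), 1.26 ± 0.25 with treatment (adjusted p = 0.0221) and 1.10 ± 0.24 against young (adjusted p = 0.00713, edgeR). The treatment call was lost when these groups alone were fitted (adjusted p = 0.0568, edgeR). C1ra ran from -1.12 (median 0.09) to 0.41 log2 CPM in young CA1, from -0.57 (median 0.11) to 0.84 log2 CPM in old control CA1 and from -0.03 (median 0.35) to 1.45 log2 CPM after anti-miR-mix. All groups overlapped. C1ra had a log2 fold change of 0.24 ± 0.31 with age (SE, adjusted p = 0.740), 0.48 ± 0.28 with treatment (adjusted p = 0.578) and 0.71 ± 0.29 against young (adjusted p = 0.155, edgeR). The log2 ratio of C1s1 to C1ra was 0.12 ± 0.60, -0.30 ± 0.49 and 0.46 ± 0.16 in young, old control and treated CA1 (SD, n = 6, 6 and 7). Old anti-miR-mix replicate 4 was the highest of its group for C1ra, C1s1, C3, Serping1 and C3ar1. The paralogs C1rb and C1s2 had 4 and 49 reads over all 19 libraries and were not tested.

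C4b, at chr17:34728380-34743882 on the minus strand, encodes C4, the substrate of C1s. C4b ran from 5.98 (median 6.83) to 7.27 log2 CPM in young CA1, from 6.94 (median 7.23) to 7.82 log2 CPM in old control CA1 and from 7.38 (median 7.79) to 8.03 log2 CPM after anti-miR-mix. Treated libraries overlapped with old control ones but not with young ones, a separation seen for 1.79% of all genes upwards and 2.42% in either direction. C1qa, C1qb, C1qc and C1s1 were separated in the same way. In C4b the log2 fold change was 0.61 ± 0.20 with age (SE, adjusted p = 0.0982), 0.41 ± 0.19 with treatment (adjusted p = 0.458) and 1.01 ± 0.19 against young (adjusted p = 0.00190, edgeR). With the processing group as a factor it was 0.73 ± 0.17 with age (adjusted p = 0.0295) and 0.20 ± 0.16 with treatment (adjusted p = 0.820, edgeR). The paralog C4a was at 1.40 ± 0.18 log2 CPM in young, 1.39 ± 0.15 in old control and 1.42 ± 0.18 in treated CA1 (SD, n = 6, 6 and 7). Its log2 fold changes were -0.02, 0.04 and 0.02 (adjusted p = 0.951, 0.942 and 0.955, edgeR). The log2 ratio of C4b to C4a was 5.29 ± 0.67, 5.95 ± 0.43 and 6.34 ± 0.33 in the same order of groups.

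C3, at chr17:57203970-57228136 on the minus strand, encodes the component on which the pathways converge, and it was the most variable of the 9 genes. C3 ran from 1.94 (median 4.61) to 5.51 log2 CPM in young CA1, from 3.68 (median 4.02) to 5.44 log2 CPM in old control CA1 and from 4.54 (median 5.35) to 6.97 log2 CPM after anti-miR-mix. The highest young library exceeded the lowest by 11.9-fold, young and old control overlapped, and 3 of 7 treated libraries were above all others. C3 had a log2 fold change of -0.14 ± 0.49 with age (SE, adjusted p = 0.914), 1.29 ± 0.47 with treatment (adjusted p = 0.289) and 1.14 ± 0.46 against young (adjusted p = 0.161, edgeR). C3 thus passed in 0 of the 3 comparisons, and its SD within groups was 1.02 on the log2 scale against 0.27 for C1qa.

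Serping1, the gene of C1 inhibitor at chr2:84765387-84775444 on the minus strand, was the only regulator among the 9. Serping1 ran from 2.96 (median 3.20) to 3.74 log2 CPM in young CA1, from 2.72 (median 2.88) to 3.54 log2 CPM in old control CA1 and from 3.20 (median 3.76) to 4.85 log2 CPM after anti-miR-mix. Of the treated libraries 5 of 7 exceeded every old control library, with replicate 4 again highest. Serping1 had a log2 fold change of -0.27 ± 0.23 with age (SE, adjusted p = 0.573), 0.88 ± 0.22 with treatment (adjusted p = 0.0659) and 0.60 ± 0.21 against young (adjusted p = 0.101, edgeR). The treatment value passed with DESeq2 (adjusted p = 0.0233) and with no filter on low counts (adjusted p = 0.0424, edgeR). With the processing group as a factor it was 0.66 ± 0.22 (adjusted p = 0.548, edgeR).

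C3ar1, the receptor gene at chr6:122847138-122856161 on the minus strand, had the highest log2 fold change of the 9 against young. C3ar1 ran from 1.37 (median 1.77) to 2.30 log2 CPM in young CA1, from 1.73 (median 2.23) to 2.31 log2 CPM in old control CA1 and from 2.16 (median 3.15) to 3.42 log2 CPM after anti-miR-mix. Treated replicate 6 lay within both other groups, and the other 6 treated libraries were above all young and old control ones. The log2 fold change of C3ar1 was 0.33 ± 0.20 with age (SE, adjusted p = 0.408), 0.93 ± 0.19 with treatment (adjusted p = 0.0240) and 1.26 ± 0.19 against young (adjusted p = 0.000259, edgeR), the last being 2.40-fold.

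C3ar1 was the only one of the 9 genes whose annotated 3′UTR held a seed match to an inhibited microRNA. Its 3′UTR has 2685 bases, and those of the other 8 genes have between 43 and 599. Both sites are shown with 11 bases on either side (GENCODE, GRCm38, minus strand), the match in capitals.
C3ar1 site for miR-146a-5p, chr6:122849779-122849807: aacctaagcagAGTTCTCaggtgaacagt
C3ar1 site for miR-148a-3p, chr6:122847620-122847648: ctgaataacacTGCACTGtgtatgtgcat
The first match begins at base 27 of the 3′UTR and is followed by an A, and the second begins at base 2186. Of 15387 tested genes with a 3′UTR, 15.2% held a match for miR-146a-5p and 18.2% for miR-148a-3p. The match for miR-181a-5p, present in 20.8%, was in 0 of the 9. Whether these sites bear on the level of C3ar1 was not tested.

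Within processing groups the treatment differences were smaller than pooled ones. The mean of the differences within groups 1, 2 and 4, which held both kinds of old mice, was 0.39 for C1qa, 0.36 for C1qb and 0.35 for C1qc on the log2 scale, beside 0.61, 0.57 and 0.58 pooled. C1s1 gave 0.98 within and 1.20 pooled. These 4 genes were higher after treatment in 3 of 3 groups, as were C3, C4b and Serping1, which were not called with treatment. Treated replicate 1 alone stood for treatment in group 1 and treated replicate 6 in group 4. C3ar1 gave 0.47 within and 0.86 pooled, its difference being 0.47, 0.97 and -0.02 in groups 1, 2 and 4. Processing group 3 held no old control library, so that it gives no treatment difference of its own, and the fit with the processing group as a factor estimates its shift from the young and treated libraries in it (C1qa 0.44 ± 0.11, adjusted p = 0.179, edgeR). All 9 genes were higher in old anti-miR-mix than in young CA1 in 4 of 4 groups, C1ra by only 0.09 in group 4. This compares age and inhibitors together. Means within groups were 0.95 for C1qa, 1.04 for C4b and 1.03 for C3ar1 beside 1.03, 1.08 and 1.21 pooled. With age C1qa, C1qb, C1qc, C4b and C3ar1 were higher in old control CA1 in 3 of 3 groups, by 0.53, 0.45, 0.36, 0.86 and 0.44 on average. These comparisons with young rest on young replicate 1 alone in group 1 and on young replicate 2 alone in group 2. The share of all genes higher in every group was not computed for any comparison. The counts of groups therefore do not set these genes apart from all genes.

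Microglial markers moved with the C1q genes. The summed level of 12 such markers had a median of 446 CPM in young (386 to 470), 487 CPM in old control (469 to 529) and 611 CPM in old anti-miR-mix CA1 (512 to 672), with no marker at 0. Of the 12, 3 were called higher with age, 3 with treatment and 11 against young (edgeR, no covariate). Over all genes 1.32%, 0.669% and 4.57% were called higher in these comparisons. With the processing group as a factor 9 of 19286 genes were called with treatment. Relative to this sum in the same library, C1qb had a log2 ratio of -3.21 ± 0.16 in young, -3.07 ± 0.10 in old control and -2.76 ± 0.19 in treated CA1 (SD, n = 6, 6 and 7). C1qc had -3.44 ± 0.17, -3.37 ± 0.06 and -3.06 ± 0.16, and C3ar1 had -6.98 ± 0.25, -6.81 ± 0.19 and -6.21 ± 0.43, so that the mean ratios were highest in treated CA1. The part of the microglial markers in the complement results was not tested.

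Other marker lists differed between groups as well. The 8 reactive glia markers summed to a median of 681 CPM in young (430 to 921), 789 CPM in old control (689 to 981) and 1194 CPM in old anti-miR-mix CA1 (814 to 1366), with 1 of 8 called with age, 0 with treatment and 4 against young, all higher. The 7 blood monocyte and neutrophil markers were low, with a median sum of 0.848 CPM in young (0.729 to 3.76), 1.24 CPM in old control (0.473 to 4.45) and 3.21 CPM in old anti-miR-mix CA1 (2.63 to 10.5). Of these 5 were tested, 0 were called with age or treatment and 3 were higher against young. For both lists, the shares of all genes called higher were 1.32% with age, 0.669% with treatment and 4.57% against young. The 10 interferon response genes had a median sum of 82.7 CPM in young (54.9 to 156), 69.6 CPM in old control (55.3 to 104) and 85.5 CPM in old anti-miR-mix CA1 (72.9 to 219), with 0 called in any comparison. With treatment the median log2 fold change (edgeR) was 0.50 for reactive glia markers, of which 7 of 8 were higher. It was 1.59 for blood monocyte and neutrophil markers (5 of 5 tested higher) and 0.67 for interferon response genes (10 of 10). Microglial markers had 0.25 and all genes tested 0.00. The part of these lists in the complement results was not tested.

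Within groups the 9 genes did not vary as 1 block. After subtraction of the group means, Pearson's r over the 19 libraries, which share depth and processing groups within them, was 0.97 between C1qa and C1qb, 0.93 between C1qb and C1qc, 0.88 between C1qa and C4b and 0.84 between C1qa and C3ar1. C3 had an r of 0.89 with C1ra and 0.65 with C1qa. Serping1 had 0.73 with C1ra and 0.65 with C1s1 but 0.26, 0.22 and 0.23 with C1qa, C1qb and C1qc. Summed microglial markers had an r of 0.83 with C1qa and 0.89 with C1qc, 0.21 with Serping1 and 0.29 with C1s1. Summed reactive glia markers had 0.88 for C1qa, 0.90 for C1qb and 0.86 for C1qc, and had 0.87 with C4b, 0.85 with C3 and 0.77 with C3ar1, where microglial markers had 0.72, 0.48 and 0.67. Summed interferon response genes had 0.80 with C1ra, 0.78 with C3 and 0.76 with Serping1. Summed blood monocyte and neutrophil markers, which were low, had 0.63, 0.66 and 0.66 with the same genes.

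**Figure D3:**
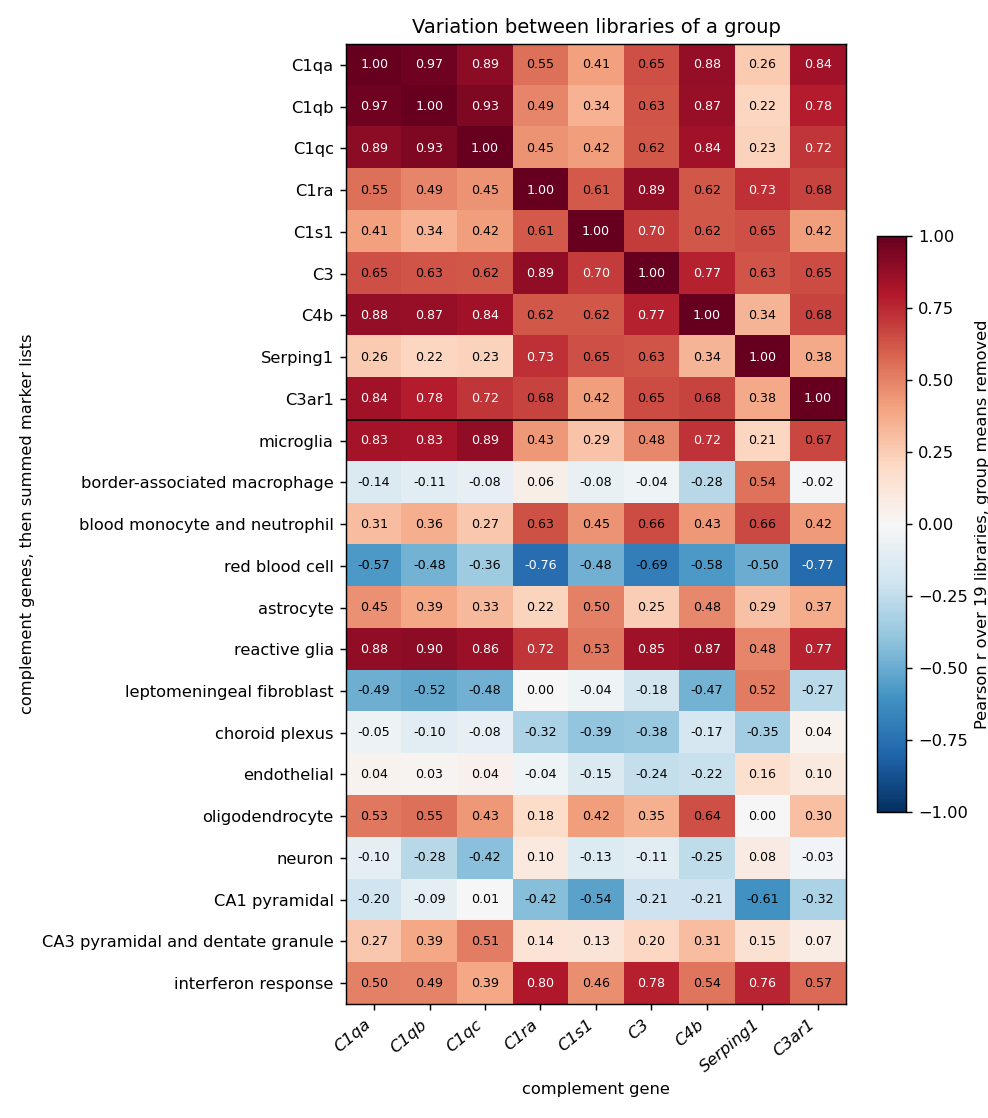
Pearson's r over 19 libraries, after subtraction of the group means, between each of the 9 complement genes (columns) and the same genes (upper rows) or the summed CPM of 14 marker lists (lower rows). C1qa, C1qb, C1qc and C4b form a block of r between 0.84 and 0.97, and Serping1 has at most 0.26 with the C1q genes.

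The genes most alike by the same r, among tested genes with a mean of at least 20 reads, differed between the 9. Those closest to C1qa were Ctss (0.95), Hcls1 (0.94) and Ptpn6 (0.93), those closest to C1qb were Ptpn6 (0.94), Ly86 (0.93) and Hcls1 (0.92) and those closest to C1qc were Csf1r (0.92), Slco2b1 (0.92) and Tyrobp (0.91). C3ar1 was closest to Cd68 (0.89), Ctsz (0.89) and Mpeg1 (0.89), and C4b to Csf1 (0.93), Ncf1 (0.92) and Ly86 (0.91). C3 was closest to Lcn2 (0.96), Steap4 (0.96) and Serpina3n (0.93), and C1ra to Nmi (0.91), Trim30d (0.89) and Trim30a (0.89). Serping1 was closest to Cyp1b1 (0.92), Anxa2 (0.91) and Cp (0.90), and C1s1, which had few reads, to Ckap2l (0.83), Tnfaip2 (0.83) and Il7r (0.82).

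Of 50 further genes of the pathway 36 passed the filter. With age 0 of 36 were called by edgeR, with treatment 2 and against young 4, all higher and all receptors or receptor chains. Over all genes 2.67%, 0.669% and 6.2% were called in these comparisons. Median log2 fold changes over the 36 were 0.03, 0.03 and 0.07. At an unadjusted p under 0.05 there were 8 of 36 with age (6 of them higher), where 18.1% of all genes were under it, and DESeq2 called 1 of 36, which was lower, where it called 4.74% of all genes. The unadjusted count in edgeR was 7 with treatment (6 higher) and 9 against young (5 higher), where 10.5% and 19.6% of all genes were under it. Itgax ran from -0.42 (median 0.40) to 0.90 log2 CPM in young CA1, from 0.27 (median 1.61) to 2.16 log2 CPM in old control CA1 and from 1.75 (median 3.65) to 4.15 log2 CPM after anti-miR-mix. Itgax encodes the alpha chain of complement receptor 4, and treated replicate 6 alone lay within the old control range. Itgax had a log2 fold change of 1.16 ± 0.42 with age (SE, adjusted p = 0.136), 1.92 ± 0.35 with treatment (adjusted p = 0.0152) and 3.08 ± 0.38 against young (adjusted p = 4.50e-05, edgeR). Itgb2, the beta chain of receptors 3 and 4, had 0.86 ± 0.17 with treatment (adjusted p = 0.0206) and 1.33 ± 0.17 against young (adjusted p = 5.49e-05, edgeR). With the processing group as a factor neither passed with treatment (adjusted p = 0.116 for Itgax and 0.0810 for Itgb2, edgeR). Itgam, the alpha chain of receptor 3, had 0.27 ± 0.12 with treatment (adjusted p = 0.434) and 0.56 ± 0.12 against young (adjusted p = 0.00544, edgeR). C5ar2, a receptor for C5a, passed against young (0.60 ± 0.17, adjusted p = 0.0336) but not with the processing group as a factor (adjusted p = 0.0637, edgeR).

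The other steps of the pathway had 0 calls in each comparison with edgeR, where 2.67%, 0.669% and 6.2% of all genes were called. Among so few genes, 0 calls do not set these steps apart from all genes. Log2 fold changes of the 17 regulators tested lay between -0.16 and 0.37 with treatment and between -0.14 and 0.40 against young. Clu, which encodes the regulator clusterin, was at 9.85 ± 0.13, 9.84 ± 0.03 and 9.94 ± 0.08 log2 CPM in young, old control and treated CA1 (SD, n = 6, 6 and 7). Masp1, a protease gene of the lectin pathway, was at 2.98 ± 0.13, 2.72 ± 0.12 and 2.84 ± 0.13 log2 CPM, and Cfp, which encodes properdin of the alternative pathway, at 3.83 ± 0.24, 3.68 ± 0.05 and 3.67 ± 0.09 log2 CPM. Of the terminal pathway 3 of 7 genes were tested, among them C8g, which ran from 1.17 to 1.82 log2 CPM over all libraries. C9, Mbl1 and Cd55b had 0 reads in all 19 libraries, which allows up to 3 reads each by counting error alone.

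**Figure D4:**
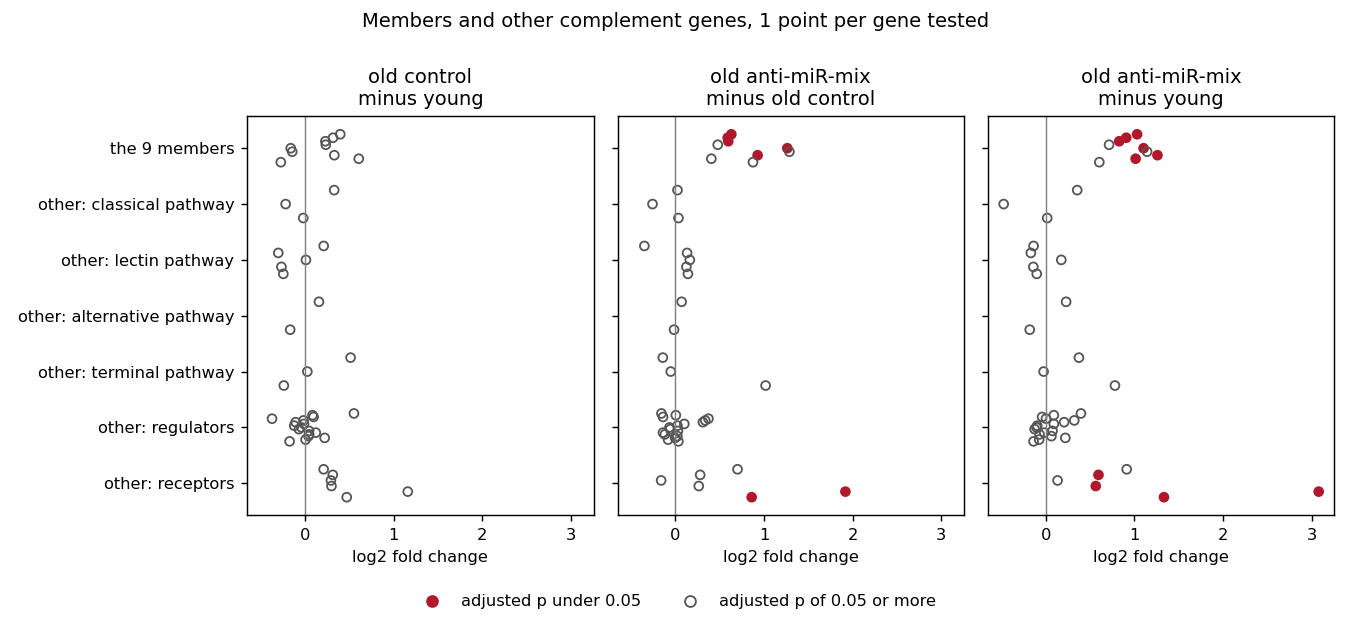
Log2 fold change (x axis) of the 9 complement genes and 36 further complement genes by step of the pathway (rows) in the 3 comparisons, with 1 point per gene, filled where the adjusted p is under 0.05 in edgeR. Filled points occur among the 9 genes and the receptors, Itgax lying farthest right at 3.08, and 0 of 17 regulators are filled. Over all genes 2.67%, 0.669% and 6.2% passed with age, with treatment and against young.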

How the data were processed

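The deposited count files list raw read counts by Ensembl gene for 19 libraries of polyadenylated RNA. According to the study's methods and the submitters' processing notes, the authors used FastQC 0.11.5, STAR 2.5.2b with mm10, and featureCounts of Subread 1.5.1. Strand and multi-mapping options are not given in the sources used here. The authors also deposited log2 values of 18761 genes, which equal log2(CPM + 1) less the product of a slope for the gene and a library's processing group (largest difference 3.31e-08).

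Groups follow the sample descriptions. The filter required 5 reads in 50% of libraries and retained 99.95% of reads. A single edgeR fit (4.0.16, limma 3.58.1, R 4.3.3) of the 3 groups with TMM scaling gave quasi-likelihood p-values, adjusted (Benjamini-Hochberg) over all genes, and was tested on simulated data. Log2 CPM used a prior count of 2, and RPKM the annotated exons (GENCODE M21). Alternatives were DESeq2 1.42.0 (used by the study) and its size factors, other filters, the 2 compared groups alone, the processing group as a factor or number, limma on the deposited log2 values, old control replicates 5 and 6 merged, a replicate block, each library left out and, chosen after seeing the data, processing group 3 left out.

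The 9 genes and all lists were chosen with earlier results of these data known. Named besides them are pathway genes that were called, the most abundant of each step, paralogs and the 3 genes most alike. Marker lists covered microglia, border-associated macrophage, blood monocyte and neutrophil, red blood cell, astrocyte, reactive glia, leptomeningeal fibroblast, choroid plexus, endothelial, oligodendrocyte, neuron, CA1 pyramidal, CA3 pyramidal and dentate granule cells, and interferon response.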

Additional observations from a re-analysis of the deposited data

How the results depend on the processing

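Of the 9 genes, the count called with age was 0 and became 4 with the processing group as a factor and 3 with that factor and old control replicates 5 and 6 as 1 library, and stayed at 0 with each library left out. With treatment the count of 5 became 0 with the processing group as a factor, with old control replicates 5 and 6 as 1 library, with both, and without processing group 3 (chosen after seeing the data), and lay between 0 and 6 with each library left out. Against young the count of 6 lay between 6 and 7 with each library left out and between 5 and 6 otherwise. Of the 36 other complement genes, the count of 0 with age became 1 with DESeq2, 3 with the processing group as a factor and 1 with that factor and the merged old controls. With treatment the count of 2 became 0 with the factor, 1 with the merged old controls, 0 with both and 0 without processing group 3, and lay between 0 and 2 with each library left out (0 without old control replicate 2, and 1 without old control replicate 1, 5 or 6 or old anti-miR-mix replicate 3, 4 or 5). Against young the count of 4 lay between 3 and 5. No value reversed its direction past the threshold. Deviations of same-numbered libraries had correlations from -0.17 to 0.21. With no reference value beside them, these do not show whether the numbers pair libraries, and the labels state no pairing. A fit with a replicate block, which leaves out treated replicate 7 where treated libraries enter, called 3 of the 9 genes with age and 8 with treatment. It called 2 of the 36 others with age. Over all genes, 129 were called with treatment in the reported fit, 9 with the processing group as a factor, 33 with the merged old controls, 55 with the compared groups alone, 267 with DESeq2, 238 with the replicate block and 0 without processing group 3. With age 514 of 19286 genes were called in the reported fit, 914 with DESeq2, 371 with the processing group as a factor and 1138 with the replicate block. The factor with the merged old controls called 223 of 19512 with age. The causes were not tested. C1ra and C1s1, with the fewest reads, have the widest counting error of the 9.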

Other observations

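The marker lists not described above had 0 genes called with treatment (edgeR), with median log2 fold changes of 0.07 for astrocyte, 0.28 for border-associated macrophage, 0.55 for leptomeningeal fibroblast, 0.25 for oligodendrocyte, 0.03 for endothelial, 0.09 for red blood cell, -0.05 for choroid plexus, -0.06 for neuron, -0.13 for CA1 pyramidal and 0.17 for CA3 pyramidal and dentate granule markers. Over all genes 0.669% were called with treatment. With age 6 of 8 oligodendrocyte markers and 1 endothelial marker fell, and 1 astrocyte marker (S100b) rose, where 1.34% of all genes were called lower and 1.32% higher. Against young 2 astrocyte markers and 1 border-associated macrophage marker rose, and 1 marker each of the endothelial, oligodendrocyte, neuron and CA1 pyramidal lists fell. In that comparison 4.57% of all genes were called higher and 1.63% lower.

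Summed leptomeningeal fibroblast markers, with a median of 84.2 CPM in young (44.4 to 154), 54.1 CPM in old control (39.6 to 68.6) and 63.9 CPM in old anti-miR-mix CA1 (39.7 to 147), had an r of 0.52 with Serping1 and -0.49 with C1qa over the 19 libraries after subtraction of the group means. Summed red blood cell markers had -0.77 with C3ar1 and -0.76 with C1ra. Young replicate 3, of processing group 3, was the highest of its group for 7 of the 9 complement genes. Replicate 1 of each group, in processing group 1, was the lowest of its group for 5 of the 9 genes in young, for 5 in old control and for 4 in treated CA1, where replicate 6, of processing group 4, was the lowest for the other 5. By Dixon's test a single library stood apart in 0 of 27 sets of 1 gene in 1 group.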
